A study of Danio rerio with 45 samples.

Results

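Zebrafish embryos at the 1-2 cell stage carry the RNA that the mother stored in the egg, and the transcripts of embryos without Dnmt3aa were compared here with those of wild-type (WT) embryos at that stage. The members are the 3 arrays labelled dnmt3aa-/- and the 3 arrays labelled wild-type at 1-cell to 2-cell, 6 of the 45 arrays of a series that covers 3 genotypes and 5 stages. The mutant is maternal-zygotic (MZdnmt3aa-/-, MZ for short), so that both the mother and the embryo lacked functional Dnmt3aa, and the WT embryos carried no mutation named in the labels. RNA from 1 pool of 20 live embryos was hybridized to each one-colour Agilent array. The replicates are described as biological, and nothing further says which clutches or parents the pools came from, so the p-values measure the spread between these pools, which may be technical. The 3 dnmt3bb.2-/- arrays of the same stage are given beside some values as a further genotype.

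Before the zygotic genome is switched on, a fish embryo lives on mRNA and protein made by the growing oocyte. Translation, polyadenylation and clearance of the stored mRNA set which proteins are made, while transcription is almost silent. Dnmt3 enzymes place new methyl groups on CpG sites, and Dnmt1 with Uhrf1 copies existing methylation when DNA is replicated.

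Both genotypes carried the RNA of a cleavage embryo. The 23 probes of 8 tested egg marker genes were above background on all 6 arrays, with a median log2 score (log2 of the scaled intensity) of 14.2 on each WT array and of 14.7 to 14.9 on the MZ arrays. The ccnb1 transcript, which encodes cyclin B1, was higher on all 6 of its probes, by 0.36 to 0.57 on the log2 scale. The germ plasm gene dazl was higher by 0.45 and 0.55 on its 2 probes. Both probes of zar1, an oocyte gene needed for egg RNA storage, had lower means on the MZ arrays, but the test was not passed (log2 differences of -1.17 and -1.21, limma adjusted p = 0.0344 and 0.0279) and the array of MZ replicate 3 lay near the WT arrays.

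The array of MZdnmt3aa replicate 1 stood apart. On it 919 probes lay more than 8-fold above the mean of the other MZ arrays, against 41 to 88 such probes on each of the other 5 arrays. The 47 probes of 20 genes chosen to mark later embryos had a median log2 score of 7.93 on it. Among these genes were the epidermal keratin krt4 and the fast muscle genes mylpfa and actc1b. The 47 probes had medians of 4.29 and 4.24 on the other MZ arrays and 4.72 to 5.6 on the WT arrays. Their summed signal was 116214 on that array and 5177 and 5231 on the other MZ arrays. The actc1b probe with the highest level read 15.02 there, 10.4 and 10.1 on the other MZ arrays and 8.43 to 9.85 on the WT arrays. The 17 probes of 15 lens crystallin genes named crygm2d, which are near-identical and may share signal, had a median of 12.9 on it, against 4.62 and 2.13 on the other MZ arrays. Their median was 6.31, 4.28 and 3.64 on the WT arrays and 2.52, 5.11 and 2.28 on the dnmt3bb.2-/- arrays. The counts of calls, the list counts and medians, the probes of genes named by rule and the difference between stages were also computed without this array. Where that moved a count by much or lost a call, the value is given beside the result. Other values were not computed without it. Among them are the pairs of probes, the calls shared with shield, the families, the gene spans, the brightness bins and the members named beyond the rule.

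Ovarian somatic and blood markers also differed between the WT and MZ arrays, in both directions. Of 12 tested genes of that list (19 probes), 1 was higher and 5 were lower in all probes on the MZ arrays, with a median log2 difference of -0.84. That median rested on single arrays: it was -0.28 without WT replicate 2, -0.49 without MZ replicate 3, -0.64 without WT replicate 1, -1.07 without MZ replicate 1 and -1.26 without WT replicate 3. The foxl2a transcript, which encodes a granulosa cell transcription factor, read 5.65, 5.52 and 5.42 on the WT arrays and 2.09, 2.06 and 2.93 on the MZ arrays with one of its 3 probes, and no dnmt3bb.2-/- array exceeded 2.4 on it. No MZ array was above background on any foxl2a probe. Bounded as described for zp2l2 below, foxl2a was at least 2.45-fold, 4.84-fold and 3.14-fold lower. The inha probe, above background on 2 WT arrays and no MZ array, was at least 1.29-fold lower. The steroidogenic gene cyp17a1 went the other way, higher by 1.38 and 1.21 on its 2 probes. In WT 11 to 13 of the 19 probes were above background, in MZ 7 or 8 and in dnmt3bb.2-/- 6 to 8. By this count both mutant genotypes lay below WT, but the probes had been kept by their readings on the WT and MZ arrays alone. A probe above background only on dnmt3bb.2-/- arrays could not be counted, so the count does not set dnmt3bb.2-/- against WT evenly. Unlike foxl2a, the sox9b probe had a mean of 10.11 in dnmt3bb.2-/-, against 9.76 in WT and 7.97 in MZ. The summed signal of the 19 probes was 40316 to 40340 on the WT arrays and 42603 to 42980 on the MZ arrays. On the dnmt3bb.2-/- arrays it was 11882 to 18261. These sums follow the brightest probes and do not describe the list. The cyp17a1 probes had means of 15.05 and 13.03 in MZ and 13.84 and 11.65 in WT, where those of hbba1 had 13.71 and 12.92. On dnmt3bb.2-/- replicate 2 the brighter cyp17a1 probe read 1.92, against 13.53 and 13.60 on the other replicates. Where this RNA in pools of 1-2 cell embryos came from was not tested, nor was the part of its source in the results below.

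**Figure D1:**
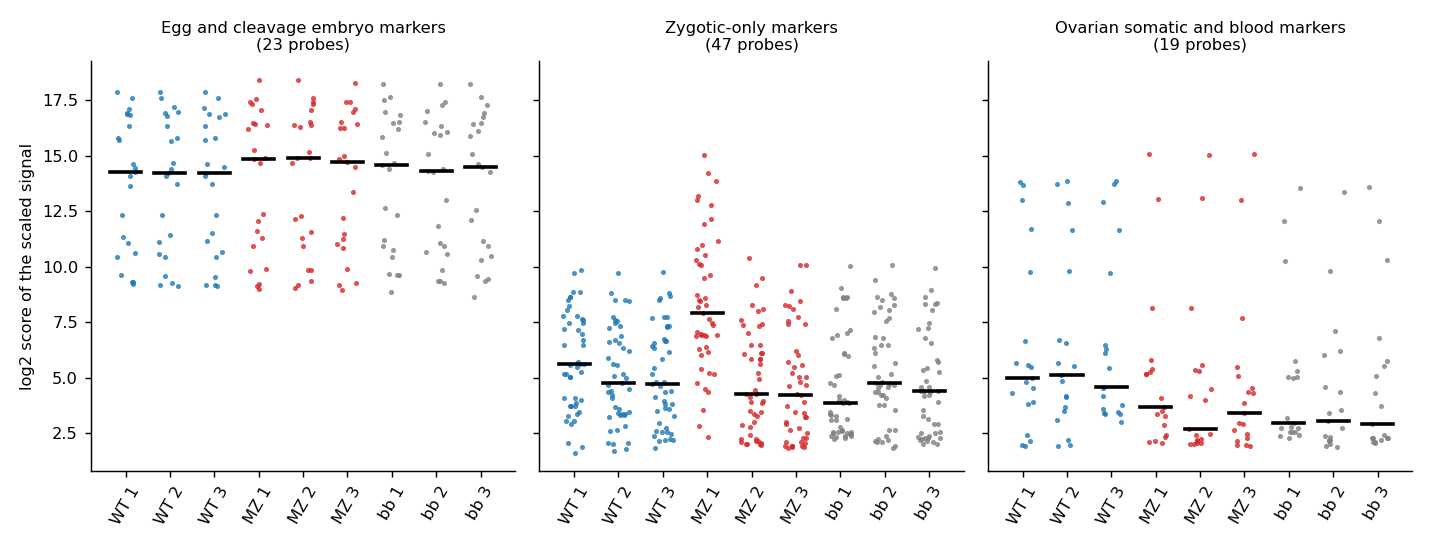
Log2 score (y axis, no unit) of each probe of the egg, later-embryo and ovarian or blood marker lists on the 9 arrays of 1-2 cell (x axis: WT, MZ for MZdnmt3aa-/- and bb for dnmt3bb.2-/-, replicates 1 to 3). Points are probes, black bars are medians, and the later-embryo markers have a median of 7.93 on the array of MZ replicate 1 against 4.29 and 4.24 on the other MZ arrays.

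All 3 WT arrays were on 1 slide read on the first scan day, and all 3 MZ arrays were on another slide read on the second day. The grid version named in the scan files also differed between the WT and MZ arrays. Genotype, slide, scan day and grid version thus cannot be told apart in any value of this comparison. The median ratio of spot to background signal was 2.75 to 2.81 on the WT arrays and 2.03 to 2.46 on the MZ arrays. The dnmt3bb.2-/- arrays of this stage were read on the WT day and had the grid version of the WT arrays. The median SD of a probe was 0.0441 among the WT arrays and 0.0966 among the MZ arrays.

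The dnmt3aa transcript itself was present in the mutant. Its probe read 9.24, 9.17 and 9.21 on the WT arrays and 9.73, 9.77 and 9.88 on the MZ arrays. The groups did not overlap, as in 76.2% of all probes tested, and the MZ mean was higher by 0.59 ± 0.05 (SE, n = 3 and 3, limma adjusted p = 3.55e-04). Where the probe lies relative to the mutation is not given in the sources used here, so its level neither bears out nor contradicts the genotype labels.

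Among the other DNA methyltransferase genes dnmt3ba and dnmt3bb.1 rose and the dim dnmt3ab was lower, with calls that were lost without single arrays. Of all 32461 probes tested, 57.3% were called (28.5% higher and 28.8% lower at an adjusted p of at most 0.01). Of the 11557 genes tested, 43.4% were called in all of their probes, 19.6% higher and 23.8% lower, and 6.27% were at least 2-fold higher and 10.6% at least 2-fold lower in all of them. In these shares and in every list count, a gene with 1 tested probe counts by that probe alone, which shows no agreement between probes. Of the 6512 genes with at least 2 tested probes, 1090 were higher and 1194 lower in all of them. Of the 8 genes of the methyltransferase list, dnmt3aa and the Dnmt1 cofactor uhrf1 included, 3 were higher and 2 were lower in all probes and 3 were called in part of their probes. The 2 lower genes became 0 without any 1 WT array and 1 without any 1 MZ array. With most tested probes called, a call alone sets no gene apart here, and sizes are given beside each.

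One probe of dnmt3ba, a Dnmt3b-type enzyme, read 10.16, 10.18 and 10.17 on the WT arrays and 11.68, 11.69 and 11.69 on the MZ arrays. That was a rise of 1.52 ± 0.03 (limma adjusted p = 5.95e-06), and the second probe rose by 1.37. These probes read 10.5 to 11.5 on the dnmt3bb.2-/- arrays, above WT as well. The single probe of dnmt3bb.1 read 13.45, 13.48 and 13.57 on the WT arrays and 14.83, 14.99 and 15.14 on the MZ arrays, a rise of 1.49 ± 0.09 (limma adjusted p = 9.15e-05). In the dnmt3bb.2-/- pools it read 12.6 at most, below WT. The dnmt3ab transcript, from the closest relative of dnmt3aa, was dim and lower on the MZ arrays. With its brighter probe the WT arrays read 6.81, 7.09 and 6.89 and the MZ arrays 4.43, 2.57 and 2.94, and 1 of the 3 MZ arrays was above background. The fall was called (limma adjusted p = 1.84e-03) but not without WT replicate 2, and its size is uncertain: the fitted value of -3.62 uses readings that were not above background, and with readings raised to each array's lowest value above background the MZ mean was 4.29 against 6.93 in WT. Its other probe, above background on 2 of the 3 MZ arrays, had a fitted fall of -1.51 and lost its call without any 1 WT array or without MZ replicate 3.

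The maintenance enzyme dnmt1 and its cofactor uhrf1 differed little in size. The log2 differences of the 5 dnmt1 probes were 0.30 to 0.45, of which 3 were called, and those of the 4 uhrf1 probes were 0.08 to 0.82, of which 3 were called. Each of the 3 called dnmt1 probes lost its call when any 1 WT array was left out, and 2 more dnmt1 probes were called without MZ replicate 3. Without MZ replicate 1 one of the dnmt1 probes (limma adjusted p = 0.0134) and one of the uhrf1 probes (0.0186) were not called. The dnmt3bb.2 transcript was at 12.01 to 12.09 on the MZ arrays and at 12.25 to 12.30 on the WT arrays, a fall of -0.22 that was lost without MZ replicate 1 (limma adjusted p = 0.0151) and without any of the other arrays but MZ replicate 3. The 2 probes of dnmt3bb.3 differed from each other: one rose by 0.54, and the other (log2 difference -0.21) did not pass the test and was called without MZ replicate 3.

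Of 12 genes for methyl-CpG binding and DNA demethylation, 5 were higher and 2 lower in all probes, with a median log2 difference of 0.63 against -0.01 over all named genes. Without MZ replicate 1 the median was 0.50. The stress-induced gene gadd45ab, whose mammalian relatives take part in DNA demethylation, read 7.98, 7.93 and 7.88 on the WT arrays and 9.49, 9.35 and 9.20 on the MZ arrays with one probe, and rose by 1.41 and 1.67 on its 2 probes. Of the 2 copies of the methyl-CpG binding family gene mbd3, mbd3a rose by 0.76 and mbd3b fell by 1.09.

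How far the probes of a gene moved together was measured over 6512 genes with at least 2 tested probes. In 5149 of them at least 1 probe was called. All probes were called one way in 44.4% of these (1090 genes higher and 1194 lower), probes were called in opposite directions in 11.01% (567 genes, or 8.71% of the 6512), and in the other 44.6% only part of the probes was called. The share moving as one was 53.0% for genes with 2 probes and 31.7% for those with 3 or more. Without MZ replicate 1, 1969 genes moved as one and 450 had opposite calls. The number of genes with opposite calls was 348, 318 and 323 without WT replicate 1, 2 or 3. Calls of all kinds were then fewer, with 14500, 14263 and 14314 called probes against 18598 on all 6 arrays. Without MZ replicate 1, 2 or 3 there were 17028, 15362 and 19932. A call lost without a WT array is thus not particular to its gene.

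Size mattered for agreement. In 3717 genes with 2 probes, both above background on all arrays of a group, the signs matched in 78.5% and Pearson's r across genes was 0.73 (genes are not independent replicates). Both probes exceeded 2-fold in 653 genes, and 97.1% of these had matching signs. Yet at the far end the agreement was less: for probes that moved by 3 to 5 on the log2 scale, the other probes of the gene were called the same way in 83.8% of pairs and the opposite way in 4.68%, while for probes that moved by 5 or more the shares were 68.5% and 20.6%. Among the 183 genes in which 1 probe moved by more than 3, the other probe moved by under 0.5 in 20.

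**Figure D2:**
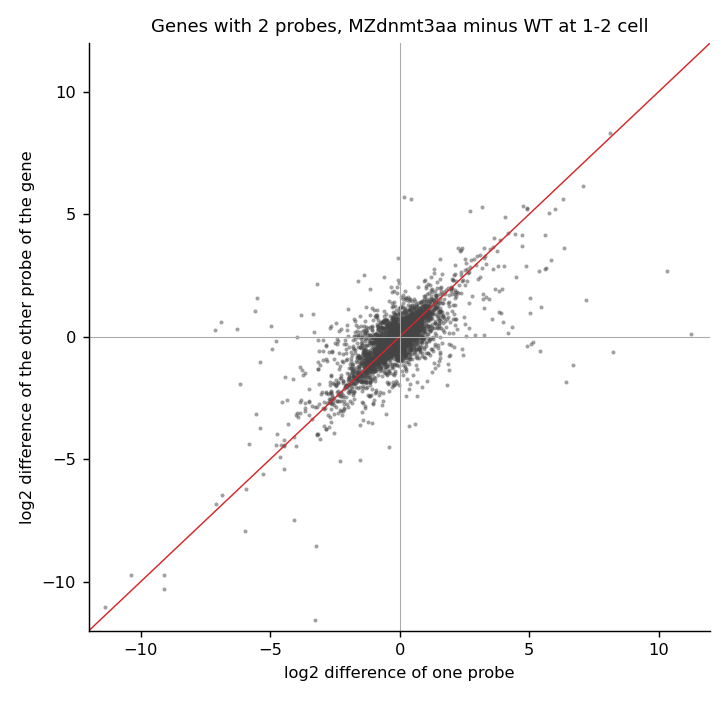
Log2 difference (MZdnmt3aa-/- minus WT) of one probe (x axis) against that of the other probe (y axis) for the 3717 genes with 2 probes above background on all arrays of a group. Each point is a gene; 78.5% have matching signs, and the points along the axes are genes in which only 1 probe moved.

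Maternal transcripts of the protein-making and energy machinery had more lower than higher members. Of 80 genes for cytosolic ribosomal proteins, 49 were lower in all probes and 0 were higher, 1 had opposite calls, 14 were called in part and 16 were not called, and the median log2 difference was -0.50. Lowest by the mean over a gene's probes was rps27l, a relative of ribosomal protein S27, which read 12.64, 12.81 and 12.67 on the WT arrays and 9.76, 9.76 and 11.17 on the MZ arrays. This gap of -2.47 lost its call without MZ replicate 1 (adjusted p = 0.0107), without MZ replicate 2 and without any 1 WT array. All 4 probes of rpsa, the laminin-binding protein of the small subunit, fell, with log2 differences of -1.21 to -1.39, and one of them read 16.99, 16.97 and 16.98 on the WT arrays and 15.87, 15.70 and 15.76 on the MZ arrays. The 2 probes of rpl37, a large-subunit protein, fell by 2.60 and by 0.57, so that they differed in size and not in direction.

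Over all probes of the ribosomal list, the median log2 score was 15.6 to 15.7 on the WT arrays, 14.99 to 15.17 on the MZ arrays and 14.70 to 14.87 on the dnmt3bb.2-/- arrays, which share no mutation in dnmt3aa according to their labels. Without MZ replicate 1, 39 ribosomal genes were lower.

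Genes of oxidative phosphorylation, which make the electron transport chain and ATP synthase in mitochondria, showed the lowest median of the long lists. Of 89 genes 56 were lower in all probes and 4 were higher, with a median of -0.87. The complex I subunit gene ndufa6 read 13.54, 13.61 and 13.65 on the WT arrays and 10.88, 10.45 and 10.81 on the MZ arrays, a fall of -2.89 ± 0.13 (limma adjusted p = 3.43e-05). Another complex I gene, ndufa2, fell by 2.35 and 2.60 on its 2 probes. In the other direction, atp5mc3a, a gene of the ATP synthase ring, read 10.37, 10.48 and 10.33 on the WT arrays and 12.97 to 13.10 on the MZ arrays, and rose by 2.63. The list's median score was 13.7 on the WT arrays, 12.6 to 12.9 on the MZ arrays and 12.93 to 13.04 on the dnmt3bb.2-/- arrays.

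Proteasome genes were lower in 28 of 53 cases and higher in 6, with a median of -0.42. The 3 probes of psma1, an alpha subunit of the core particle, fell by 1.78 to 2.15, and the brightest read 13.90, 13.92 and 13.90 on the WT arrays and 12.23, 11.98 and 12.17 on the MZ arrays. The other core subunit gene psma6b fell by 2.02, while psmd9, an assembly chaperone of the regulatory particle, rose by 1.94. Without MZ replicate 1, 53 oxidative phosphorylation genes and 26 proteasome genes were lower. Of 27 aminoacyl-tRNA synthetase genes, which charge tRNA with amino acids, 7 were lower and 1 was higher (median -0.23), and the 7 became 13 without MZ replicate 3. The mitochondrial enzyme gene ears2 fell by 1.98 and 1.95, and the 3 probes of the cytosolic isoleucine enzyme gene iars1 fell by 1.43 to 1.81.

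**Figure D3:**
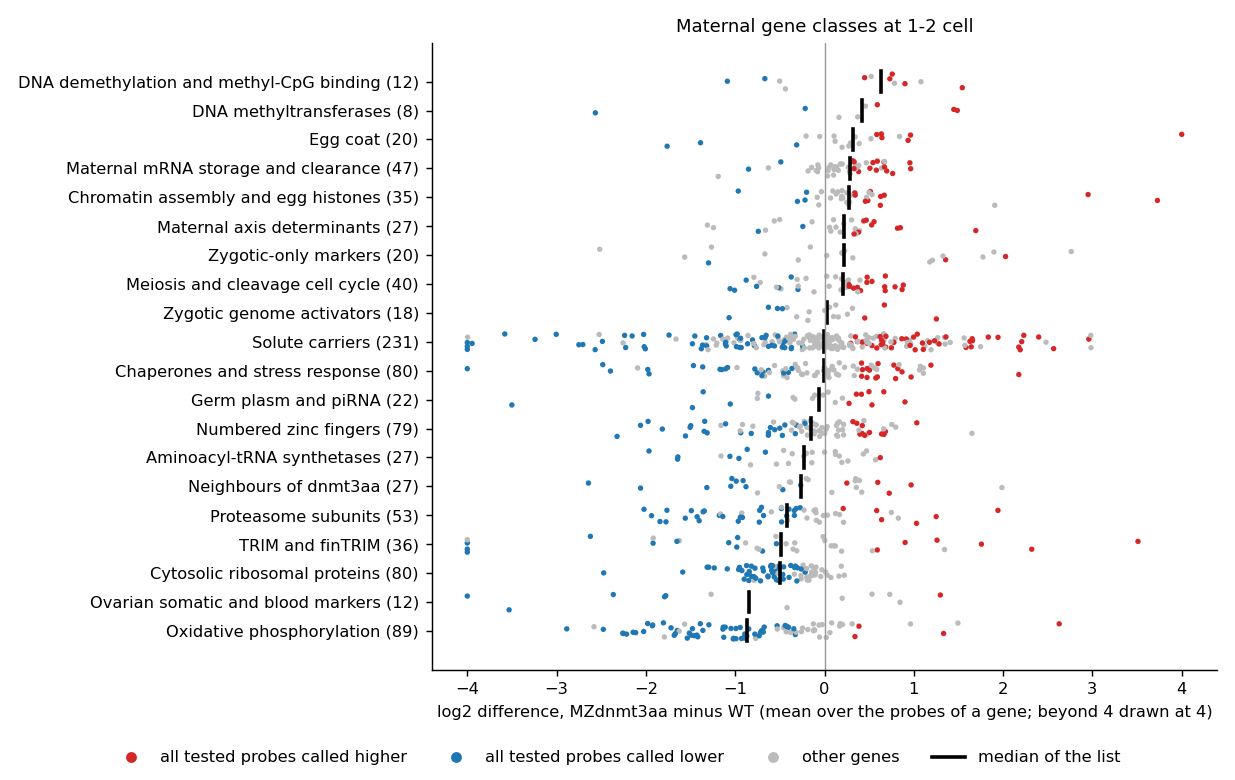
Mean log2 difference over the probes of each gene (x axis, MZdnmt3aa-/- minus WT at 1-2 cell, drawn at 4 where larger) for the genes of each maternal class (y axis). Each point is a gene, coloured by whether all of its probes were called higher, all lower, or otherwise, and the lowest medians of the long lists are -0.87 for oxidative phosphorylation and -0.50 for ribosomal proteins.

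Genes that store, silence or clear maternal mRNA had more higher than lower members. Of 47 such genes, 14 (29.8%) were higher in all probes and 2 (4.26%) were lower, with a median of 0.29. A further 2 had opposite calls, 15 were called in part and 14 were not called. Over all named genes 19.6% were higher and 23.8% lower, the shares to set beside the counts of every list. The rises were small, and 0 genes were at least 2-fold higher in all probes. The 4 probes of elavl1b, an HuR-type protein that binds AU-rich sequences, rose by 0.74 to 1.18, and one read 10.48, 10.41 and 10.45 on the WT arrays and 11.65, 11.67 and 11.56 on the MZ arrays. The 3 probes of the decapping gene dcp1a rose by 0.35 to 1.60. Also higher were igf2bp1 and igf2bp3, RNA-binding proteins that protect maternal mRNA (means of 0.67 and 0.59), cpeb1b, which binds the cytoplasmic polyadenylation element (0.67), the m6A reader ythdf3 (0.70) and the poly(A)-binding genes pabpc1a (0.58) and pabpc1l (0.32). The oocyte cap-binding gene eif4e1b fell on both probes, by 0.97 and 0.73, and btg4, an adaptor for deadenylation, fell by 0.49. The count of 14 became 10 without MZ replicate 1 and 9 without WT replicate 1, WT replicate 2 or MZ replicate 2.

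Among 40 genes of meiosis and the cleavage cell cycle, 15 were higher and 7 lower, with a median of 0.21. Cyclin genes were among the higher ones, with means of 0.87 for ccna1, 0.68 for ccna2, 0.48 for ccnb1 and 0.37 for ccnb2, as were the inhibitory kinases wee1 (0.68) and wee2 (0.53). The 3 probes of prc1a, which bundles microtubules of the spindle midzone, rose by 0.87 to 0.90. The cyclin partner cdk1 read 13.03, 13.08 and 13.03 on the WT arrays and 11.90, 12.02 and 12.03 on the MZ arrays, a fall of -1.06, and cks1b, its small subunit, fell by 0.84 and 1.17. The 15 became 9 without MZ replicate 1, 8 without WT replicate 1 or MZ replicate 2, and 7 without WT replicate 2 or 3.

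Of 35 genes for chromatin assembly and egg histones, 10 were higher and 4 lower (median 0.27). The count of 4 was 1 without any 1 WT array and 2 without MZ replicate 1 or 2. The largest rise was that of hmgb1b, an HMG box chromatin protein. Its 3 probes rose by 3.68 to 3.80, and one of them read 9.30, 9.29 and 9.21 on the WT arrays, 13.01, 13.04 and 12.88 on the MZ arrays and 10.8 to 10.9 on the dnmt3bb.2-/- arrays. The linker histone gene h1-10 rose by 2.77 and 3.13, from dim WT values of 3.47 to 4.79, and the egg linker histone h1m by 0.34. The egg chaperone npm2b, which remodels sperm chromatin, read 15.30, 15.43 and 15.36 on the WT arrays and 14.32, 14.42 and 14.44 on the MZ arrays, a fall of -0.97.

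Axis and germ cell determinants were divided. Of 27 maternal axis genes 9 were higher and 2 lower (median 0.21), and the 9 became 5 without MZ replicate 1, MZ replicate 2 or WT replicate 3, and 4 without WT replicate 1 or 2. The 2 lower genes became 1 without WT replicate 2 or 3 and 3 without MZ replicate 1. All 4 probes of smad3a, a transducer of Nodal and Activin signals, rose, by 1.06, 1.22, 1.43 and 3.07. The Wnt pathway gene apc rose by 0.44 to 1.31 and mapkapk2a, a kinase of the p38 pathway, by 0.36 to 1.27, each on 4 probes.

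Of 22 germ plasm and piRNA genes 7 were higher and 5 lower, with a median of -0.06. The piRNA helicase gene tdrd9 was far below WT on its 1 tested probe, with 12.20, 12.12 and 12.16 on the WT arrays and 8.52, 8.69 and 8.77 on the MZ arrays, a fall of -3.50 ± 0.08 (limma adjusted p = 6.13e-06). On the dnmt3bb.2-/- arrays it read 11.76 to 12.01. Its partners in the piRNA pathway asz1 and tdrd5 fell by 1.48 and 1.06, and the germ plasm gene nanos3 fell by 1.36. The 5 lower genes became 3 without any 1 WT array or MZ replicate 2. Higher members included dnd1 (0.53), which protects germ cell mRNA from miRNAs, the Vasa gene ddx4 (0.27) and dazl (0.50).

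The egg coat genes, which encode zona pellucida glycoproteins, had 6 of 20 higher, 3 lower and 3 with opposite calls (median 0.32). The family shares sequence, and its probes may share signal. One zp2l2 probe read 1.97, 1.98 and 2.13 on the WT arrays and 7.18, 7.59 and 8.11 on the MZ arrays, at least 11.9-fold higher, and the other rose by 2.77. Such bounds set the bright group's mean of normalized log2 values against the dim group's mean of, per array, the higher of the probe's own value and the lowest value among probes well above background. That zp2l2 probe read 7.7 on the dnmt3bb.2-/- arrays. The zpd transcript read 13.40, 13.41 and 13.41 on the WT arrays and 11.53, 11.63 and 11.78 on the MZ arrays, a fall of -1.76, and read 10.9 to 11.2 on the dnmt3bb.2-/- arrays.

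Of 18 genes for activators of the zygotic genome, 3 were higher and 4 lower (median 0.03). The pou5f3 transcript, which with Nanog and Sox factors opens the zygotic genome in fish, rose by 0.69 and 0.65 on its 2 probes, with 16.31, 16.34 and 16.33 on the WT arrays and 17.03, 17.05 and 16.95 on the MZ arrays. Its partner nanog was lower on 2 of 3 probes, by -0.19 and -0.32, and the third did not pass the test (-0.05). The rise of sox3, by 1.13 and 1.37, was lost without MZ replicate 1 (adjusted p = 0.0187 and 0.0161) and also, on 1 or both of its probes, without WT replicate 2, WT replicate 3, MZ replicate 2 or MZ replicate 3. The histone demethylase gene kdm1a fell by 1.07. The 3 higher genes became 1 without WT replicate 2 or 3 or MZ replicate 1 or 2, and the 4 lower ones became 2 without any 1 WT array or MZ replicate 2.

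The genes with the largest differences shared by all of their probes lay mostly outside these classes. They were ranked by fitted differences, which also use readings not above background, so no order among them is read. The p-values of such probes use those readings as well. Insulin, ins, was among the higher ones. Its 2 probes read 1.84 to 2.44 on the WT arrays and 10.02 to 10.73 on the MZ arrays, at least 64.8-fold and 96.1-fold higher (limma adjusted p = 4.24e-07 and 5.21e-07). The dnmt3bb.2-/- arrays lay between 1.8 and 3.0, as low as WT, and all 3 MZ arrays were alike.

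The gene anxa6, for a calcium-dependent membrane-binding annexin, had 3 probes that were above background on no WT array and at least 10.3-fold, 25.9-fold and 130-fold higher on the MZ arrays. The brightest read 1.96, 3.12 and 2.12 on the WT arrays and 10.76, 10.96 and 11.50 on the MZ arrays. The microtubule regulator gene stmn1b rose by 4.45 and 4.18, with WT values of 3.80 to 5.24. For ins, anxa6 and stmn1b the dnmt3bb.2-/- values were low, apart from 1 reading of 6.7 on an anxa6 probe.

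For dcxr, which encodes a sugar and dicarbonyl reductase, one probe read 6.70, 6.72 and 6.82 on the WT arrays and 13.94, 13.95 and 13.55 on the MZ arrays. It rose by 7.07 ± 0.12 (limma adjusted p = 3.62e-06) and its other probe by 6.16. On the dnmt3bb.2-/- arrays the first probe read 13.4, 14.3 and 13.4, beside the MZ arrays and not the WT arrays. The dnmt3bb.2-/- arrays were also high for the membrane protein gene tmem45a (rises of 5.99 and 5.20), the selenoprotein gene selenow2b (6.31 and 5.63), the cytochrome P450 gene cyp2p6 (5.78 and 5.06) and the glutamine synthetase gene glulc (4.91 and 5.22). The galectin gene lgals9l3 rose by 4.92 and 5.24, and the immunoglobulin-domain gene vsig8a by 4.19 and 4.24.

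Among the lower genes was trim35-7, of a large fish family of TRIM ubiquitin ligases. Its 2 probes read 13.2 to 13.6 on the WT arrays and 2.06 to 2.28 on the MZ arrays, at least 630-fold and 525-fold lower (limma adjusted p = 3.66e-07 for both). The dnmt3bb.2-/- arrays lay at 12.4 to 13.1. The family copies trim35-22 and trim35-23 were lower too, with fitted differences of -6.60 and of -4.0 and -4.44. Since the copies share sequence, their probes may share signal. Of all 36 genes of the TRIM list 11 were lower and 6 higher, with a median of -0.48, and 7 were lower without WT replicate 2 or 3.

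Blood globin transcripts followed. The adult beta-globin gene hbba1 read 13.68, 13.73 and 13.72 on the WT arrays and 3.49, 2.67 and 3.88 on the MZ arrays, at least 712-fold lower, and at least 397-fold lower on its other probe. In the dnmt3bb.2-/- pools the first probe read 2.2 to 3.6. The beta-globin-like gene ba1l had fitted differences of -9.11 and -9.72 and si:ch211-5k11.8, a gene named only by its clone, of -9.10 and -10.30. Globin copies are near-identical, and their probes may share signal. These genes were high on the 3 WT arrays alone of the 9 arrays of this stage, and the source of the globin RNA in the WT pools was not tested. As hbba1 is itself a member of the ovarian and blood list above, its fall is part of that list's result. Other blood genes of the list were divided. The probes of hbba2 (-0.20 and 1.26), alas2 (0.20) and lyz (-1.27) were not called, and mpx was called lower (a fitted -1.78). The mpx probe was above background on 1 WT array and no MZ array, so no size can be read from it.

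The small heat shock gene hspb1 was lower but uneven among the MZ arrays, of which 1 of 3 was above background on each of its 2 probes. The fitted values of -7.08 and -6.83 are therefore no measured sizes, and with dim readings raised as for the bounds the MZ means were 5.15 and 4.51 against 11.35 and 10.01 in WT. One probe read 11.46, 11.27 and 11.32 on the WT arrays and 7.02, 3.41 and 2.39 on the MZ arrays, with the value of 7.02, the only one of these above background, on the array that stood apart. That probe lost its call without any 1 WT array and without MZ replicate 2 or 3. The P450 genes cyp46a1.5 and cyp46a1.1, of a cholesterol 24-hydroxylase type with further copies on the array, were near background on the MZ arrays. The WT arrays read 8.95, 8.98 and 9.04 and the MZ arrays 2.17, 2.29 and 1.99 on a cyp46a1.5 probe, at least 27.0-fold lower, while the dnmt3bb.2-/- arrays read 8.8 to 9.3. The collagen chaperone gene serpinh1a fell by 4.86 to 6.33 on 3 probes, the bitter taste receptor gene tas2r202 by 5.92 and 6.21, and the riboflavin transporter gene slc52a3-2b by 5.26 and 5.62. These are fitted values, and as the MZ readings of tas2r202 were at or near background, its falls are no measured sizes. On slc52a3-2b the dnmt3bb.2-/- arrays divided, with 11.4, 2.0 and 11.4 on the brighter probe.

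**Figure D4:**
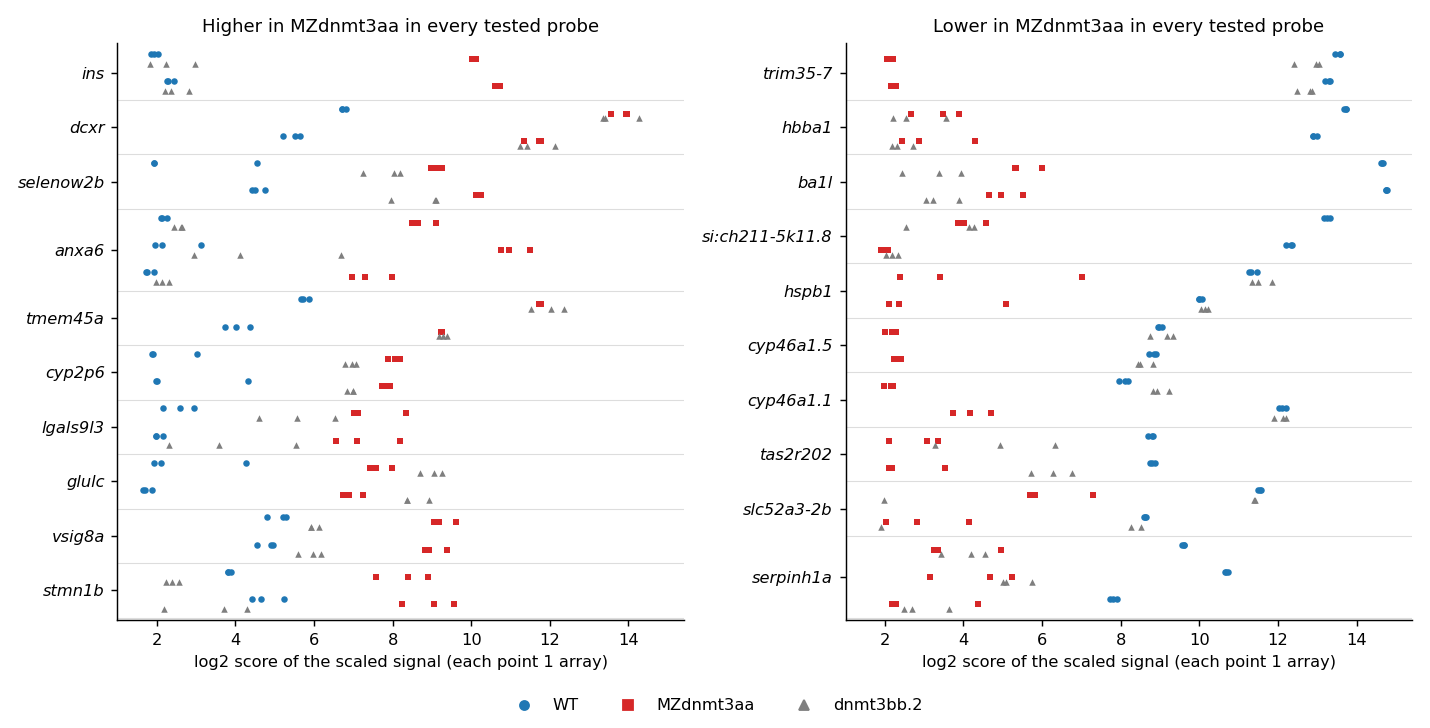
Log2 score (x axis, 1 point for each array) of every probe of the 10 genes with the largest agreed rise and the 10 with the largest agreed fall (y axis), for WT, MZdnmt3aa-/- and dnmt3bb.2-/- arrays. The trim35-7 probes sit at 13.2 to 13.6 on the WT arrays and at 2.06 to 2.28 on the MZ arrays, and the ins probes at 1.84 to 2.44 and 10.02 to 10.73.

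Some of the largest single-probe differences were not shared by the gene. In calr, for an endoplasmic reticulum chaperone, one probe read 12.59, 12.67 and 12.62 on the WT arrays and 2.26, 2.18 and 2.04 on the MZ arrays, at least 335-fold lower. The other 3 probes were higher by 0.88, 0.48 and 0.74, and the one at 0.48 lost its call without WT replicate 1, WT replicate 3, MZ replicate 1 or MZ replicate 2. One probe of xpo7, for a nuclear export receptor, read 1.83, 2.51 and 2.01 on the WT arrays and 13.24, 13.24 and 13.62 on the MZ arrays, at least 634-fold higher, while the other probe did not pass the test (6.14 to 6.20 and 6.14 to 6.47). On the first xpo7 probe the dnmt3bb.2-/- arrays read 2.4, 12.9 and 2.7, so that 1 of the 3 pools resembled MZ.

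The mitochondrial import receptor gene tomm20a had a probe at 3.14, 3.11 and 2.59 on the WT arrays and 11.06, 11.11 and 11.41 on the MZ arrays, and a second probe that was lower by -0.64. Its first probe read 2.6, 10.5 and 6.2 on the dnmt3bb.2-/- arrays. In gatd1 one probe was 8.56 higher and the other 2 had differences of -0.50 and -0.70. The ribosome biogenesis gene rrs1 had one probe lower by -9.10 and the other 2 at -0.37 and -0.19, not called. The probes of grcc10 differed by 0.82, 6.19 and -5.87, those of si:dkeyp-34c12.1 by -9.90, -0.70 and 1.35, and those of trim35-24 by -4.40, -8.29 and 0.27. The si:dkeyp-34c12.1 probe at -0.70 (limma adjusted p = 0.026) and the trim35-24 probe at 0.27 (0.0218) lost their calls without MZ replicate 1. Differences against readings not above background are fitted values here too. For these genes a single probe gives no gene-level direction. Other named genes had only 1 tested probe, so agreement between probes cannot be read for them. Among these were tdrd9, asz1, nanos3, ndufa6, atp5mc3a, psma6b, psmd9, rps27l, cdk1, npm2b, zpd, kdm1a and slc43a3a.

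**Figure D5:**
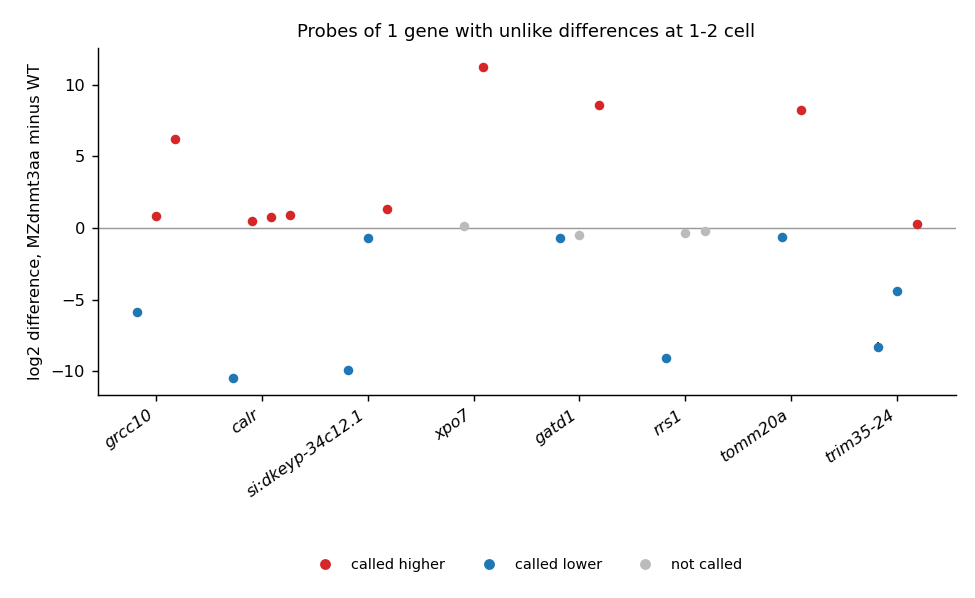
Log2 difference (y axis, MZdnmt3aa-/- minus WT at 1-2 cell) of each probe of the 8 genes whose probes were furthest apart (x axis). Points are probes and error bars are 1 SE, which is smaller than most points, and the calr probes lie at 0.48 to 0.88 and at a fitted -10.46, for which the MZ readings give only a bound of at least 335-fold lower.

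Of the larger families, 54 of 231 solute carrier genes were lower and 42 higher (median -0.00), which is close to the shares over all genes. The slc43a3a probe read 11.96, 11.93 and 11.98 on the WT arrays and 2.25, 2.26 and 2.09 on the MZ arrays, at least 210-fold lower (limma adjusted p = 3.66e-07), and the choline transporter-like gene slc44a4 fell by 5.41 and 3.73. Chaperone and stress genes were lower in 19 of 80 cases, higher in 16 and opposite between probes in 10 (median -0.01), and the 3 probes of the disulfide isomerase gene pdia6 fell by 2.15 to 3.11. The numbered zinc finger genes had 23 of 79 lower and 11 higher (median -0.15), the latter 7 without MZ replicate 1 or WT replicate 3, 6 without WT replicate 1 or MZ replicate 2 and 4 without WT replicate 2. The znf1173 probes fell by 2.20 and 2.45. Of the 3 vitellogenin genes, which encode yolk precursors made in the mother's liver, vtg2 was lower (-2.21) and the others were not called, but no vitellogenin probe was above background on all 6 arrays, and 2 of the genes were lower without WT replicate 1.

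Among the later-embryo markers 2 of 20 genes were higher, 1 was lower and 15 were not called, with a median of 0.21. Without MZ replicate 1 the median was -0.40 and 5 genes were lower. The organizer gene gsc was one of the higher genes on all 3 MZ arrays, with 7.59, 7.72 and 7.33 on the WT arrays and 9.49, 9.48 and 10.06 on the MZ arrays, rises of 2.13 and 1.92 on its 2 probes. The hindbrain gene egr2b rose by 1.36 and the epidermal gene tp63 fell by 1.41 and 1.18. Some members were brighter in WT at 1-2 cell than at shield, so a reading of theirs at 1-2 cell does not by itself mark later embryos. The WT means were 9.73 and 8.59 against 8.66 and 7.23 for tp63. For neurog1 they were 8.84 and 8.54 against 6.39 and 5.67, and for egr2b 4.86 against 4.24. The actc1b probes, used above for MZ replicate 1, had WT means of 8.01, 8.98 and 5.22 against 6.85, 7.63 and 5.45.

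Genes that lie next to dnmt3aa on its chromosome, and are inherited with it, were counted as well. Of the tested genes among 25 on each side, 27 in all, 10 were lower and 4 higher, with a median of -0.27 that became -0.12 without MZ replicate 3. Counted by probe, 16 were higher and 16 lower. The transcription factor gene tfap2d fell by 1.81 and 2.31, the former not called without WT replicate 3.

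At shield, a gastrula stage with its own 3 WT and 3 MZ arrays, far fewer probes were called, 12.2% of 33766 (6.58% higher and 5.67% lower). Of 17654 probes called at 1-2 cell and tested there, 2334 (13.2%) were called in the same direction and 278 (1.57%) in the opposite one, and of the probes not called at 1-2 cell 7.42% were called at shield. For the 1021 probes that differed at least 8-fold at 1-2 cell, 412 (40.4%) were called in the same direction and 25 in the opposite one. At shield WT and MZ arrays were again read on different days and had different grid versions, so neither difference can be told apart from genotype there. The shield arrays of each genotype were spread over more than 1 slide, unlike those of 1-2 cell, so slide differences can enter their spread. The part of this in the lower share of calls and in the overlap was not tested.

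The falls of the globins, of cyp46a1.1, cyp46a1.5, serpinh1a and slc43a3a and the rises of dcxr, tmem45a, cyp2p6, glulc, stmn1b and hmgb1b were called at shield as well, on all of their probes except 1 of serpinh1a. The dcxr probes rose there by 5.66 and 4.89. The ins probes had shield differences of 3.15 and 4.06 that did not pass the test (adjusted p = 0.208 and 0.131). The dnmt3bb.1 rise was 1.497 at shield (limma adjusted p = 5.99e-04) and the dnmt3aa transcript was higher by 0.95 (adjusted p = 2.21e-03). Taken over probes and not over gene means, the list medians at shield were -0.21 for ribosomal proteins, -0.14 for oxidative phosphorylation and -0.02 for the proteasome. The medians over probes at 1-2 cell were -0.48, -0.84 and -0.56.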

How the data were processed

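RNA of 20 pooled embryos was labelled with Cy3 from poly(A)-primed cDNA and hybridized to Agilent 4x44 zebrafish arrays, so a transcript's reading also depends on its poly(A) tail. The authors deposited Feature Extraction output (version 12.0.3.1 in the submitters' processing notes): an intensity for each spot, background-subtracted and spatially detrended. The deposited normalized intensity multiplies that signal by an array-wide factor that brings the trimmed mean (2% off each end) to 2500. The flags deposited with it (well above background, saturated, outlier, control) were used as given. The log2 of the deposited normalized intensity was fitted with limma 3.58.1 (lmFit, eBayes) in R 4.3.3 with data.table, version 1.17.8, on the 6 arrays with genotype as the only term. The limma test and the threshold follow the study's methods, and the choice of arrays and terms was made here. Of 43603 probes outside the controls, 32461 were tested, which needed a reading well over background on 1 or more of the 6 arrays and at least 2 values in each group, after leaving out 2 to 10 outlier spots per array and averaging the spots of a probe. Between 63.8% and 67.3% of probes were above background on an array. Calls were made at a Benjamini-Hochberg adjusted p of at most 0.01, and 18598 probes were called (9261 higher, 9337 lower), against 23460 at an unadjusted p of at most 0.05. Having 3 arrays in a group limits the precision. A probe above background on no array of a group has only a bound there. It entered the test through the other group alone, and its p-value rests in part on the spread of readings not above background.

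Accessions of the array design were matched to the RefSeq gene annotation, which named 26421 probes (13633 symbols) and left 17182 unnamed. The lists came from general knowledge, and the members and lists were chosen with earlier results of these data known. Named were all DNA methyltransferase genes, the 10 genes with the largest agreed rise and the 10 with the largest agreed fall (at least 2 probes, all called one way and above background in the brighter group, ranked by the smallest change), the 8 genes with the furthest probes, and 3 genes of each list, of which 1 is not reported here. The egg, later-embryo and blood markers and other members named with a list mean were named beyond that rule after their values were seen. A further list, of NOD-like receptors, matched 0 genes. The simulated data on which the fit was tested had known changes, and figures used matplotlib 3.10.9 and numpy 2.4.6 with pandas 2.3.3 under Python 3.11.15. Alternatives were other scalings, background correction, filters, fits and thresholds, a replicate block and leaving out each array. Coordinates are not printed, since the array and the gene table are of different assemblies.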

Additional observations from a re-analysis of the deposited data

Results flagged for a closer look

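The difference between MZdnmt3aa-/- and WT was not the same at 1-2 cell and at shield for 7434 of 29788 probes (25%, limma interaction, adjusted p of at most 0.01). At both stages genotype, scan day and grid version cannot be told apart. Of the DNA methyltransferase genes and the genes named for probes that moved together or apart, those for which every probe passed this test are given with the mean difference over their probes. The genes other than the methyltransferases were named for large differences or probe gaps at 1-2 cell. That choice favours a larger difference there than at shield, so their gaps are given as descriptions only.

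For several of these genes the values rest on readings not well above background at 1-2 cell, so the fitted differences and gaps are no measured sizes. The anxa6 probes were above background on no WT array at 1-2 cell, where the fitted difference was 6.96 and the bounds at least 10.3-fold to 130-fold, and at shield, where WT embryos expressed it too, the difference was 0.1, a fitted gap of 6.85 (adjusted p = 1.22e-05, the largest over its probes, as for the other genes). The trim35-7 probes were above background on no MZ array at 1-2 cell (fitted -11.21, at least 630-fold and 525-fold lower) and had a difference of -1.55 at shield, a fitted gap of -9.66 (adjusted p = 5.48e-07). For hspb1, above background on 1 of the 3 MZ arrays at 1-2 cell, the fitted differences were -6.96 and -0.53, a gap of -6.43 (adjusted p = 0.00307).

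The MZ readings of cyp46a1.5, cyp46a1.1 and tas2r202 were at or near background at 1-2 cell and dim at shield (means of 2.29 to 3.76), so whether their falls differed in size between the stages cannot be read from the fitted gaps of -3.2 for cyp46a1.5 (-6.66 and -3.46, adjusted p = 1.17e-05), -2.82 for cyp46a1.1 (-6.94 and -4.12, adjusted p = 0.000444) and -3.97 for tas2r202 (-6.07 and -2.09, adjusted p = 0.00517). On the higher side, the gap was 1.13 for dnmt3ba (1.45 and 0.32, adjusted p = 0.000129) and 1.93 for tmem45a (5.59 and 3.66, adjusted p = 0.00632), of which one probe was above background on 1 of the 3 WT arrays at 1-2 cell. The value of 0.84 for tomm20a (3.81 and 2.96, adjusted p = 0.000549) is a mean over 2 probes of opposite sign at 1-2 cell and describes neither.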

How the results depend on the processing

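No probe called at 1-2 cell was called in the opposite direction under any of the alternatives run, and none of the 184 probes named by the rule was called with the opposite sign. Rises made up 47.6% to 54.0% of calls under the scalings, filters and left-out arrays and 40.6% with a further 2-fold threshold. The median of the vitellogenins was -1.0 and became 0.0027 after normexp correction. The ovarian and blood median was -0.84 and became 0.17 with no filter on dim probes, which also moved the median of all probes to 0.13. The later-embryo median was 0.21 and became -0.40 without MZ replicate 1 and 0.93 without MZ replicate 2. In the fit over all 45 arrays 7 mRNA storage genes were higher.

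A 2-fold threshold left 7389 called probes (3003 higher, 4386 lower), 725 higher and 1227 lower genes, 709 genes moving as one and 47 with opposite calls, 0 mRNA storage genes higher, and 5 ribosomal, 12 proteasome and 31 oxidative phosphorylation genes lower, 4059 probes differing from shield, and the dnmt3aa rise of 0.59 did not pass it. At an adjusted p of at most 0.05, 11942 probes differed from shield.

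Leaving out each array gave 14263 to 19932 called probes (7124 to 9832 higher, 7131 to 10100 lower), 1670 to 2451 genes higher and 2034 to 3014 lower, 1575 to 2552 moving as one and 318 to 664 opposite, a dnmt3aa rise of 0.55 to 0.62, 9 to 17 mRNA storage genes higher, 35 to 57 ribosomal, 21 to 28 proteasome and 47 to 63 oxidative phosphorylation genes lower, and 5192 to 9681 probes differing from shield.

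The labels link same-numbered replicates by the number alone. Correlations of their deviations were 0.251, 0.12 and 0.0994, and replicates 1 and 3, though not 2, were closest to their own number. Whether the numbers mark a pairing cannot be read from these values. With the replicate number as a block, 13225 probes were called (6500 higher, 6725 lower), 1494 genes were higher and 1871 lower, 1382 moved as one and 272 opposite, 6 mRNA storage genes were higher, 27 ribosomal, 20 proteasome and 46 oxidative phosphorylation genes were lower, dnmt3aa stayed at 0.59 (limma adjusted p = 0.006) and 6148 probes differed from shield.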

Other observations

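Other families, chosen after their values were seen, are given as values. Mitochondrial ribosomal proteins, which translate the mitochondrial genome, were lower in all probes in 38 of 66 genes and higher in 8, with a median log2 difference of -0.57 and a range of -2.63 to 1.21. Translation initiation factors were lower in 25 of 59 genes, higher in 5 and opposite between probes in 7 (median -0.41). Both probes of eif2b1, a subunit of the exchange factor that recycles eIF2, fell, by 1.66 and 1.82, and the 4 probes of eif3hb, a subunit of the scaffold factor eIF3, fell, with log2 differences down to -2.16. Serine-arginine splicing factors were higher in 6 of 16 genes and lower in 1 (median 0.31).

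Cadherins, which hold cells together, were higher in 6 of 9 genes and lower in 0, with 3 called in part (median 1.02). One probe of the N-cadherin gene cdh2 read 7.42, 7.26 and 7.27 on the WT arrays and 10.19, 9.70 and 10.07 on the MZ arrays, a rise of 2.67 ± 0.14 (limma adjusted p = 5.98e-05), and its other probe rose by 1.38. The cdh10a probe, above background on no WT array, read 3.32 to 3.91 on the WT arrays and 7.19, 7.27 and 7.82 on the MZ arrays. Of 22 related protocadherin genes 2 were higher, 1 was lower and 18 were not called (median 1.14), against 3675 not called of all 11557 genes. The higher ones were pcdh1g9, with a probe above background on no WT array, and pcdh2aa3, with probes above background on 0, 0 and 1 WT arrays. The cdh6 probes were above background on 1 and 0 WT arrays. These differences are fitted values. In the dimmest of 10 equal bins of probes ranked by brightness the median was 0.46, so the median of 1.14 is not read as a rise.

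Calls were also counted by the length of genome that a gene spans. In the fifth of genes with the shortest span in the RefSeq table (median 3.84 kb) 28.3% were lower and 15.8% higher in all probes, and in the fifth with the longest (median 78.6 kb) 17.7% were lower and 20.9% higher. Among probes ranked by brightness in 10 equal bins, in the brightest bin 41.5% were higher and 24.6% lower.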
